A study of Mus musculus with 12 samples.

Results

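The thyroid hormone deiodinases and receptors examined here are 4 genes, Dio1, Dio2, Thra and Thrb, out of 54532 genes in a count table of whole mouse colon RNA. They were found by their gene names, and all 4 are among the 24102 genes that passed the filter on low values (3 or more libraries with an FPKM of 0.1 or above). The set was chosen by the measured response of 1 member, Dio2, to dextran sulfate sodium (DSS), so the values of Dio2 are described below with no test. The other members were tested with all genes.

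The table holds 12 libraries, 3 in each of 4 groups, made to compare colitis with and without STING in myeloid cells. Tmem173fl/fl mice carry a floxed gene of STING and no Cre, and Tmem173iΔmye mice carry the same floxed alleles with Lyz2-Cre ert2, a Cre made active by tamoxifen in myeloid cells. All mice were on the C57BL/6N background and had 5 tamoxifen injections, and mice with Cre but without floxed alleles were not among the samples. Colitic mice of either genotype drank DSS for 7 days and then water for 1 day, from 6 to 8 weeks of age, while untreated mice drank water. The labels do not say that each library is a separate mouse, so p-values measure the spread between these libraries. Library totals ran from 13823237 to 18718915 counts. In whole tissue RNA, fewer cells of a type and less RNA per cell cannot be told apart. Tmem173 itself was measured at 14.3 to 24.5 CPM (counts per library total, scaled by TMM to a common depth) in untreated Tmem173fl/fl mice and 14.6 to 21.3 CPM in untreated Tmem173iΔmye mice, and the corresponding colitic ranges of 37.6 to 44.0 and 23.8 to 47.8 CPM also overlapped, so whole tissue does not check the deletion. By Xist and Y-linked genes, 3 libraries came from female mice, namely the untreated replicates numbered 3 of either genotype and colitic Tmem173iΔmye replicate 5, while the colitic Tmem173fl/fl group held male libraries only.

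The thyroid gland releases mainly thyroxine (T4), a prohormone. Deiodinases are selenoenzymes that act inside cells: type 1 (Dio1) and type 2 (Dio2) remove an outer ring iodine and give the active hormone T3, while type 3 (Dio3, not a member but reported beside them) inactivates both. T3 then binds the nuclear receptors TRα (Thra) and TRβ (Thrb), which sit on DNA with retinoid X receptors and switch between corepressors and coactivators. In the gut T3 acts on the renewal and differentiation of the epithelium, mainly through TRα, and Dio2 is known elsewhere as a cAMP-induced gene, as in brown fat.

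Dio1, Dio2 and Dio3 each hold a selenocysteine, encoded by an in-frame TGA that is read through by the selenoprotein machinery. The codons around it are shown because they identify the 3 enzymes measured here (mouse transcripts of GENCODE vM21 on GRCm38, 5′ to 3′, with the selenocysteine codon in capitals).
Dio1: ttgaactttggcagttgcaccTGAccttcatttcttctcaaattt
Dio2: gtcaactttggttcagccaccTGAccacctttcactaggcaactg
Dio3: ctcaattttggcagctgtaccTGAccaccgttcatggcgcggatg
The codon is number 126 of 257 in Dio1 (chr4:107297700-107297702, minus strand), number 130 of 266 in Dio2 (chr12:90729823-90729825, minus strand) and number 170 of 304 in Dio3 (chr12:110279739-110279741, plus strand). Of these 45 bases, 25 are the same in Dio1 and Dio2, 26 in Dio1 and Dio3, and 28 in Dio2 and Dio3. Dio2 has another in-frame TGA at codon 263, close to its stop.

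With DSS in Tmem173fl/fl mice the 2 deiodinases among the members moved in opposite directions. The bases around their annotated starts are therefore shown side by side (RefSeq, GRCm38.p6, minus strand, 300 bases each). The Dio2 window lies wholly upstream of the gene span given with the counts (chr12:90724552-90738438). Capitals mark a cAMP response element (TGACGTCA) and a TATA box (TATAAA).
Dio2, chr12:90738989-90739288: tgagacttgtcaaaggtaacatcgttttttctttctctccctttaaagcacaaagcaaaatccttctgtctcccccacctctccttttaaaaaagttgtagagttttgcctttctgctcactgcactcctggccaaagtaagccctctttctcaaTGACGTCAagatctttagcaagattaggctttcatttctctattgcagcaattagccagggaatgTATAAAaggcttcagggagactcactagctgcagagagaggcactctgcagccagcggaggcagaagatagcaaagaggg
Dio1, chr4:107307119-107307418: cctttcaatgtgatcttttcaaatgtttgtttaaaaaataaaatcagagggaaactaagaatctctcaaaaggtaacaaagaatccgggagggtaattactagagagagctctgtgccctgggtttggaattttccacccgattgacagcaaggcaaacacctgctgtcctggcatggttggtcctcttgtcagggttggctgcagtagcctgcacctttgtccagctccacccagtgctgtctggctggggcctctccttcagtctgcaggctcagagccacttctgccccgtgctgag
The Dio2 window holds TGACGTCA 95 bases and TATAAA 30 bases before the start. Both strands were searched for these letters and for AGGTCA (a nuclear receptor half-site) and TGANTCA (AP-1), and the motifs found do not overlap in these windows. Of 32851 RefSeq promoters of the same length, 1.79% hold TGACGTCA, 13.6% TATAAA, 16.3% AGGTCA and 7.81% TGANTCA. None of the 4 is in the Dio1 window, while 1 of the 2 Thrb windows holds AGGTCA and the other TATAAA. The table paired 1 window with Dio1, 1 with Dio2, 2 with Thrb and 0 with Thra. These matches are letters in a window and were not measured as binding sites.

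Dio2, the enzyme that produces T3 inside the cell that uses it, went from near the floor of the assay to one of the more abundant messages. Untreated Tmem173fl/fl mice gave 8, 3 and 4 counts (0.606, 0.203 and 0.250 CPM), and colitic Tmem173fl/fl mice gave 3361, 2032 and 5798 counts (182, 96.2 and 395 CPM). The groups lie far apart, with every colitic library at least 159 times above every untreated one. Untreated Tmem173iΔmye mice gave 5, 10 and 21 counts (0.303, 0.599 and 1.26 CPM), and colitic replicates 1, 2 and 5 of that genotype gave 183, 366 and 73 counts (13.0, 22.8 and 4.43 CPM). Dio2 was therefore also higher with DSS after myeloid deletion, without overlap, and the wording under which the set was chosen, a rise in floxed but not in deleted mice, goes against these counts. The colitic Tmem173iΔmye libraries lie between the untreated libraries and the colitic Tmem173fl/fl libraries and overlap neither.

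As ratios of mean CPM, Dio2 was 635 times its untreated level with DSS in Tmem173fl/fl mice (224 ± 154 against 0.353 ± 0.220 CPM, SD, n = 3 each) and 18.6 times in Tmem173iΔmye mice (13.4 ± 9.17 against 0.721 ± 0.491 CPM). The 95% intervals from exact counting are 366 to 1080 and 13.2 to 26.6. They cover counting error only, and they are wide because just 15 and 36 counts stand behind the untreated means. In colitis the Tmem173fl/fl mean was 16.7 times that of Tmem173iΔmye mice. The spread within groups was wide, with an SD of 62.4% to 68.5% of the mean. Without DSS, the genotype means differed by a factor of 2.04 with overlapping libraries, and the highest value came from the female replicate 3 of the Tmem173iΔmye group. The fitted log2 fold changes of edgeR were 9.39 for DSS in Tmem173fl/fl mice, 4.20 for DSS in Tmem173iΔmye mice, -4.08 for genotype in colitis and -5.12 for the difference between the DSS effects. Leaving out the 3 female libraries gave 9.20, 5.31, -3.66 and -3.87. Without colitic Tmem173fl/fl replicate 3, the highest library, the fitted values for DSS in Tmem173fl/fl mice and for genotype in colitis were 8.68 and -3.38, and without untreated Tmem173fl/fl replicate 1 the first was 9.96. Without colitic Tmem173iΔmye replicate 2 the genotype value was -4.67, and the DSS value in that genotype was 3.59, against 4.89 without untreated replicate 3. Dio2 reached the FPKM limit of the filter in 9 libraries, of which 3 were untreated.

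**Figure D1:**
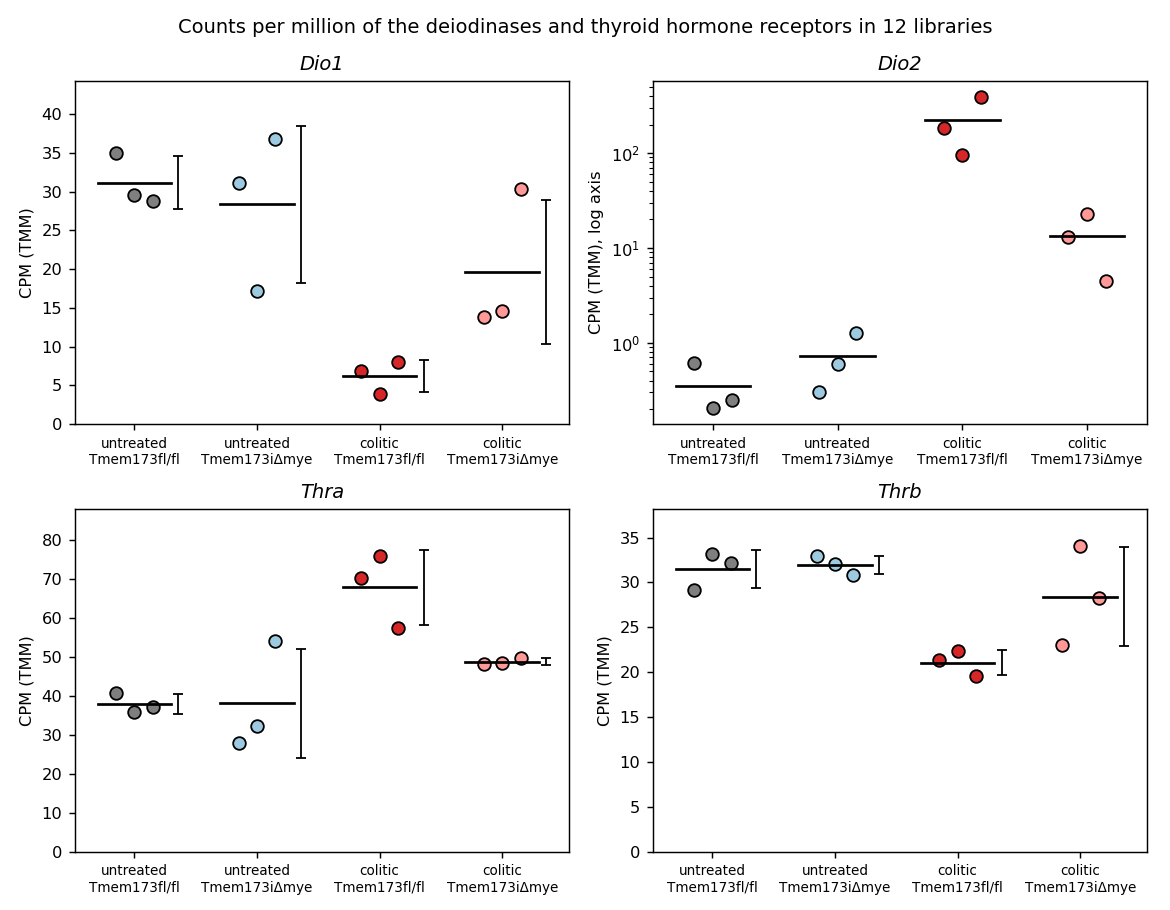
CPM (TMM-scaled) of Dio1, Dio2, Thra and Thrb in each of the 12 libraries, with 1 point per library, a bar at the group mean and, to the right of the points, the SD (n = 3). The Dio2 axis is logarithmic and carries no SD, and its colitic Tmem173iΔmye points (4.43 to 22.8 CPM) sit between the untreated points and the colitic Tmem173fl/fl points (96.2 to 395 CPM).

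Dio1, the type 1 enzyme that serves both T3 production and clearance of iodothyronines, had the highest mean FPKM of the members in untreated mice and fell with DSS in Tmem173fl/fl mice. Counts were 463, 437 and 461 in untreated Tmem173fl/fl mice and 126, 83 and 117 in colitic ones, that is 35.1, 29.6 and 28.9 CPM against 6.82, 3.93 and 7.96 CPM. No colitic library reached the lowest untreated one, and by mean CPM the level fell to 0.200 of its untreated value. The log2 fold change was -2.26 (SE 0.25, 95% CI -2.82 to -1.69, edgeR quasi-likelihood test, Benjamini-Hochberg adjusted p = 1.0e-04). In this comparison 7.61% of all genes tested were called lower and 14.9% higher (log2 fold change of 1 or more in size, with an adjusted p below 0.05), and the groups did not overlap for 49.3% of genes. The call was made under all 16 alternative settings.

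In Tmem173iΔmye mice Dio1 had a lower mean with DSS, with wide spread, and was not called. Untreated replicates gave 514, 286 and 613 counts (31.2, 17.1 and 36.8 CPM), and colitic replicates 1, 2 and 5 gave 194, 235 and 500 counts (13.8, 14.6 and 30.3 CPM). The groups overlap, since replicate 5 was as high as untreated mice and untreated replicate 2 was near the other colitic ones. With DSS its log2 fold change was -0.54 (SE 0.36, 95% CI -1.34 to 0.27, edgeR adjusted p = 0.53), and 0.597% of genes were called lower and 1.48% higher. The groups did not overlap for 21.5% of genes, among them Dio2 alone of the 4 members.

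Between colitic mice, Dio1 was 3.14 times higher in Tmem173iΔmye mice on mean CPM (19.6 ± 9.32 against 6.24 ± 2.08 CPM), and the groups did not overlap, as for 26.8% of all genes. The log2 fold change of 1.65 (SE 0.39, 95% CI 0.75 to 2.55) had an edgeR adjusted p of 0.063 and was not called, where 0.822% of genes were called higher and 1.99% lower. Over 16 alternatives this adjusted p ran from 0.0012 to 0.20 and passed in 4 of them, namely with no filter on low values, with DESeq2, with all libraries in 1 fit, and without colitic Tmem173iΔmye replicate 1. Without replicate 5, the colitic Tmem173iΔmye library with the highest Dio1, it was 0.11 at a log2 fold change of 1.18. The DSS effects of the genotypes differed by 1.79 (SE 0.49, 95% CI 0.73 to 2.85, edgeR interaction adjusted p = 0.071). Here 0.934% of genes were called higher and 1.61% lower, and this difference was called in 4 of 21 alternatives. Without DSS, Dio1 gave a log2 fold change of -0.13 between genotypes (95% CI -0.63 to 0.38, edgeR adjusted p = 1.0).

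As FPKM, which divides by gene length and so allows genes to be compared, the deiodinases changed places. Dio1 stood at 15.4 ± 1.62 FPKM (SD, n = 3) in untreated Tmem173fl/fl mice, and Dio2 at 0.0591 ± 0.0367 FPKM. In colitic Tmem173fl/fl mice Dio2 stood at 39.1 ± 26.9 FPKM and Dio1 at 3.21 ± 1.08 FPKM. Of the summed FPKM of Dio1, Dio2 and Dio3, Dio2 held 0.582%, 0.231% and 0.293% in the 3 untreated Tmem173fl/fl libraries and 88.4%, 88.5% and 93.4% in the colitic ones. In untreated Tmem173iΔmye libraries it held 0.328%, 1.16% and 1.14%, and in colitic replicates 1, 2 and 5 it held 23.4%, 34.3% and 4.58%. Dio1 thus remained the larger share in every colitic Tmem173iΔmye library and the smaller one in every colitic Tmem173fl/fl library. These are shares of message and not of enzyme activity, which was not measured.

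**Figure D2:**
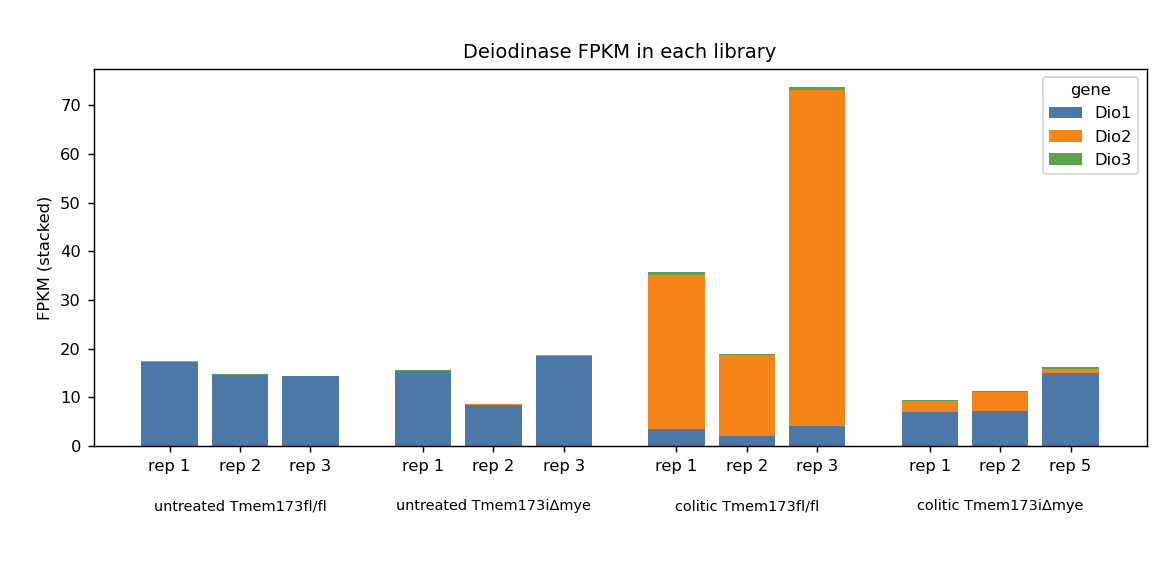
FPKM of Dio1, Dio2 and Dio3 stacked for each library, grouped by genotype and treatment. Dio1 makes up almost the whole bar in untreated mice, Dio2 holds 88.4% to 93.4% of it in colitic Tmem173fl/fl mice and 4.58% to 34.3% in colitic Tmem173iΔmye mice.

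Dio3, which inactivates T4 and T3, stayed close to the floor. It gave 0, 3 and 0 counts in untreated and 24, 7 and 22 counts in colitic Tmem173fl/fl mice, and 1, 2 and 2 against 9, 3 and 16 counts in Tmem173iΔmye mice. The ratio of mean CPM in Tmem173fl/fl mice was 15.4, with a counting interval of 4.64 to 71.6. Dio3 passed the filter on low values in 5 libraries, all of them colitic, so it was tested only through the groups in which it was higher. Its call in Tmem173fl/fl mice is therefore counted below but supports nothing, and it was lost without untreated replicate 3.

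Thra, the gene of TRα, was higher with DSS in Tmem173fl/fl mice by an amount just under the fold threshold. Counts were 538, 530 and 594 in untreated and 1296, 1604 and 842 in colitic Tmem173fl/fl mice (40.7, 35.9 and 37.2 against 70.2, 75.9 and 57.3 CPM), with no overlap. The log2 fold change was 0.91 (SE 0.14, 95% CI 0.59 to 1.23, edgeR adjusted p = 8.5e-04), so that Thra passed on its p but not on size. With library totals as the only scaling it was 1.05 and called, but that scaling also moved the median log2 fold change of all genes to 0.16, from 0.03, and the split of calls over all genes from 3589 higher and 1833 lower to 4031 higher and 1425 lower. In Tmem173iΔmye mice Thra gave 459, 540 and 899 counts untreated and 676, 779 and 819 counts in colitic replicates 1, 2 and 5 (27.9, 32.3 and 54.0 against 48.2, 48.5 and 49.7 CPM). The female untreated replicate 3 was the highest of these and made the groups overlap. Its log2 fold change was 0.35 (SE 0.25, edgeR adjusted p = 0.56) with all libraries and 0.71 (adjusted p = 0.13) in male libraries.

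Between colitic genotypes Thra was lower in Tmem173iΔmye mice without overlap, at 48.8 ± 0.818 against 67.8 ± 9.53 CPM (log2 fold change -0.48, SE 0.17, 95% CI -0.86 to -0.10, edgeR adjusted p = 0.15). The difference between the DSS effects was -0.48 (95% CI -1.12 to 0.16, adjusted p = 0.42), and the genotype difference without DSS was 0.01 (95% CI -0.46 to 0.49, adjusted p = 1.0). The gene span of Thra (chr11:98740638-98769006, plus strand) shares 1075 bases at its 3′ end with Nr1d1 (chr11:98767932-98775333, minus strand), the circadian repressor REV-ERBα. The library kit did not mark strand, so reads in that stretch cannot be told apart. Nr1d1 rose with DSS in Tmem173fl/fl mice, from 63, 41 and 49 to 349, 744 and 319 counts (log2 fold change 2.91, SE 0.31, edgeR adjusted p = 6.9e-05). Counts assigned to Nr1d1 were 0.0774 to 0.117 of those of Thra in untreated and 0.269 to 0.464 in colitic Tmem173fl/fl mice. What part of the Thra difference comes from shared reads was not tested.

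Thrb, the gene of TRβ, gave the smallest DSS differences of the 3 members tested, in either genotype. It gave 385, 490 and 514 counts in untreated and 394, 473 and 287 counts in colitic Tmem173fl/fl mice (29.1, 33.2 and 32.2 against 21.3, 22.4 and 19.5 CPM). Scaled to depth, all 3 colitic libraries were below all untreated ones. The log2 fold change was -0.51 (SE 0.14, 95% CI -0.83 to -0.19, edgeR adjusted p = 0.019) and below the fold threshold. Its adjusted p passed under 11 of 16 alternatives and ran up to 0.087. Tmem173iΔmye mice gave 543, 536 and 514 counts untreated and 323, 547 and 466 counts in colitic replicates 1, 2 and 5 (32.9, 32.1 and 30.9 against 23.0, 34.0 and 28.3 CPM), which overlap (log2 fold change -0.17, SE 0.21, 95% CI -0.63 to 0.29, edgeR adjusted p = 0.75). Among colitic mice Thrb was at 28.4 ± 5.51 CPM in Tmem173iΔmye and 21.1 ± 1.44 CPM in Tmem173fl/fl mice, and the libraries did not overlap, though the closest pair differed by a factor of just 1.03. The genotype difference was 0.42 on the log2 scale (SE 0.20, 95% CI -0.04 to 0.88, edgeR adjusted p = 0.29), and the difference between the DSS effects was 0.41 (95% CI -0.09 to 0.91, adjusted p = 0.37).

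The balance of the receptors can be read as the ratio of their FPKM. Thra stood above Thrb in all 12 libraries, by a factor of 1.74 to 2.24 in untreated Tmem173fl/fl mice and 4.71 to 5.44 in colitic ones. The corresponding ranges were 1.36 to 2.81 and 2.29 to 3.36 in Tmem173iΔmye mice, which overlap. The part of reads shared with Nr1d1 in this ratio was not tested.

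**Figure D3:**
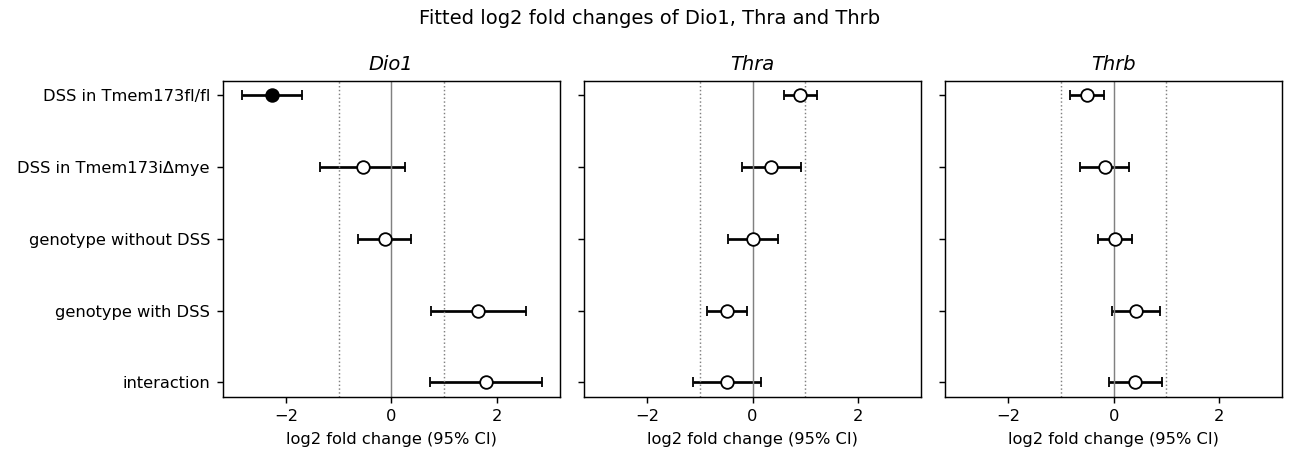
Fitted log2 fold changes of Dio1, Thra and Thrb with 95% confidence intervals (edgeR) in the 5 comparisons, with genotype shown as Tmem173iΔmye over Tmem173fl/fl, filled points for called changes and dotted lines at the fold threshold of 1. Only Dio1 with DSS in Tmem173fl/fl mice (-2.26) is filled, and intervals for Thra and Thrb are within 1 of zero or just past it.

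By level, the order of the genes differed between groups. In untreated Tmem173fl/fl mice it was Dio1 (15.4 FPKM), Thra (8.02 ± 0.512), Thrb (4.15 ± 0.286), Dio2 and Dio3, and only the last pair overlapped. In untreated Tmem173iΔmye mice the order was the same, but Dio1 (14.1 ± 5.09) and Thra (8.09 ± 3.01) also overlapped. In colitic Tmem173fl/fl mice Dio2 came first, then Thra (14.9 ± 2.03), then Dio1 and Thrb (2.88 ± 0.184), which overlapped, then Dio3 (0.520 ± 0.312). In colitic Tmem173iΔmye mice Thra (10.4 ± 0.0776) and Dio1 (9.79 ± 4.55) overlapped at the top, followed by Thrb (3.79 ± 0.717) and Dio2 (2.28 ± 1.56), which overlapped too, and Dio3 (0.291 ± 0.189). Among the 24102 genes tested, Dio2 ranked 22288 from the top in untreated and 1178 in colitic Tmem173fl/fl mice, and 11628 in colitic Tmem173iΔmye mice. Over the same groups Thrb moved only between ranks 8968, 10938 and 9540.

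Without DSS, 0% of genes were called higher and 0% lower between genotypes by edgeR, with 720 of 24102 at an unadjusted p under 0.05. DESeq2 called 3 genes, and edgeR called 68 with no filter on low values and 94 with the replicate block. Without untreated replicate 1 of Tmem173fl/fl or of Tmem173iΔmye mice, 6 and 2 genes were called. The other alternatives, limma among them, called 0. Dio1, Thra and Thrb were called in none of these fits. The groups did not overlap for 7.35% of genes, a set that held none of the 4 members.

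Marker RNA of several cell types differed between untreated and colitic Tmem173fl/fl mice along with the members. The 10 fibroblast markers summed to 1275 to 1489 CPM in untreated and 8251 to 10443 CPM in colitic Tmem173fl/fl mice, and 8 of the 10 rose. In Tmem173iΔmye mice they summed to 1247 to 1588 and 2436 to 3542 CPM, and 2 rose. In colitic Tmem173iΔmye mice the sum lay between those of untreated and colitic Tmem173fl/fl mice without overlap, as did the endothelial (245 to 467 CPM), neutrophil (201 to 313 CPM), neuron and glia (103 to 143 CPM) and monocyte and macrophage sums (643 to 988 CPM). Within that group the highest fibroblast sum was in replicate 1 and the highest Dio2 in replicate 2. Endothelial markers went from 156 to 165 CPM to 639 to 905 CPM in Tmem173fl/fl mice, with 10 of 10 rising, neuron and glia markers from 50.8 to 57.9 to 165 to 203 CPM, with 9 of 10 rising, and neutrophil markers from 46.4 to 106 to 455 to 761 CPM, with 9 of the 9 tested rising. Monocyte and macrophage markers went from 385 to 561 to 1070 to 1527 CPM, and 7 of 10 rose. Beside the fall of Dio1, epithelial markers went from 14351 to 18001 to 5608 to 9715 CPM in Tmem173fl/fl mice, with 6 of 10 falling, and were at 11630 to 14586 CPM in colitic Tmem173iΔmye mice. Colonocyte markers (5 of 10 fell and 2 rose) and smooth muscle markers (0 of 10 called) overlapped between untreated and colitic Tmem173fl/fl mice in their sums. The part of these cell types in the results for the members was not tested.

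Tissues in which deiodinases are best known were looked for as well. Of 10 thyroid follicle markers, Nkx2-1 had 0 counts in all libraries, and Foxe1 at most 2, while the sum of the list (234 to 289 CPM in untreated Tmem173fl/fl mice and up to 1400 CPM in colitic Tmem173iΔmye mice) was carried by Duox2 and Duoxa2, which the colon epithelium also makes. Skeletal muscle markers summed to 8.12 to 21.6 CPM over all libraries, with Myh4 at 0. Adipocyte markers were present at 81.6 to 326 CPM, including 0 to 218 counts of Ucp1. Their sum went from 81.6 to 164 CPM in untreated to 198 to 326 CPM in colitic Tmem173fl/fl mice, with 3 rising and 1 falling. In Tmem173iΔmye mice the ranges overlapped (172 to 284 and 151 to 253 CPM). Hepatocyte markers, led by the acute phase gene Hp, went from 53.8 to 68.5 to 428 to 728 CPM in Tmem173fl/fl mice. Of these, 4 rose and 2 fell. In Tmem173iΔmye mice they went from 67.7 to 85.1 to 100 to 297 CPM. The part of these tissues in the results for the members was not tested. Pancreatic acinar markers ran from 103 to 12191 CPM, with a wide range inside every group, and no gene of that list was called.

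The genes around the members were taken from 8 lists with 95 genes, of which 88 were tested. With DSS in Tmem173fl/fl mice 18 rose and 9 fell, where 14.9% of all genes tested rose and 7.61% fell, at a median log2 fold change of -0.03 against 0.03 over all genes tested. These shares are near those of the 88, so the counts say nothing particular to the lists. In Tmem173iΔmye mice 2 rose and 4 fell, where 1.48% of all genes rose and 0.597% fell (median -0.03 against 0.02 over all genes). Between colitic genotypes 1 was higher and 3 lower in Tmem173iΔmye mice, where 0.822% of all genes were higher and 1.99% lower (median -0.03 against 0.02), and without DSS 0 of the 88 were called. The count in Tmem173iΔmye mice depended on single libraries, from 0 without any 1 of the untreated replicates to 12 without colitic replicate 5. Between colitic genotypes it ranged from 0 without any 1 of the colitic Tmem173fl/fl replicates, or without Tmem173iΔmye replicate 2, to 10 without Tmem173iΔmye replicate 1.

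Of the enzymes that act on thyroid hormone, 7 of 7 were called with DSS in Tmem173fl/fl mice (3 higher and 4 lower), where 14.9% of all genes were higher and 7.61% lower. Dio3 is among the 3 higher and passed the filter on low values only through colitic libraries, so its call supports nothing. The sulfotransferase Sult1a1, the most abundant gene of the list (26.4 to 201 FPKM over all libraries), fell from 258 ± 57.4 to 42.7 ± 5.61 CPM (log2 fold change -2.53, SE 0.20, edgeR adjusted p = 1.2e-05). Sult1b1, a sulfotransferase with iodothyronines among its substrates, fell from 179 ± 26.3 to 42.7 ± 12.6 CPM (-2.0, SE 0.22, adjusted p = 1.0e-04), as did Iyd, which recovers iodide from iodotyrosines, and Sult1c2. Ugt1a1, which adds glucuronic acid to T4, and the aldehyde dehydrogenase Aldh1a1 rose, by 1.79 and 1.30, calls that were lost with all 12 libraries in one fit (adjusted p = 0.10 and 0.051, edgeR). Between colitic genotypes Sult1b1 was also called. Colitic Tmem173iΔmye replicates 1, 2 and 5 gave 110, 138 and 269 CPM against 44.6, 29.2 and 54.2 CPM in colitic Tmem173fl/fl mice (log2 fold change 2.01, SE 0.37, edgeR adjusted p = 0.030), a call made in 10 of 16 alternatives and lost without any 1 of the colitic Tmem173fl/fl libraries, without Tmem173iΔmye replicate 2 and with limma. In Tmem173iΔmye mice 0 of the 7 passed with DSS, near the 1.48% higher and 0.597% lower over all genes.

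Of transporters that carry thyroid hormone across the plasma membrane, 6 of 11 tested were called higher with DSS in Tmem173fl/fl mice and 0 lower, where 14.9% of all genes rose (median 1.19 against 0.03 over all genes). Slc7a8, which as LAT2 forms a transporter with the heavy chain Slc3a2, rose from 13.0 ± 1.87 to 47.0 ± 5.06 CPM in Tmem173fl/fl mice (log2 fold change 1.93, SE 0.16, edgeR adjusted p = 2.0e-05) and Slc3a2, the list's most abundant gene at 12.5 to 44.0 FPKM, by 1.38 (adjusted p = 1.6e-04). Slco2b1 and Slco3a1 also rose. The brain endothelial transporter Slco1c1 gave 2, 0 and 2 counts in untreated and 16, 13 and 15 in colitic Tmem173fl/fl mice. It met the filter on low values in 0 untreated and 3 colitic Tmem173fl/fl libraries and would not have been tested without the latter, so its call, 1 of the 6, supports nothing, as for Dio3. In colitis, Slc7a8 was lower in Tmem173iΔmye than in Tmem173fl/fl mice, with 21.8, 22.4 and 13.9 CPM in replicates 1, 2 and 5 against 49.0, 41.3 and 50.8 CPM (log2 fold change -1.29, SE 0.23, edgeR adjusted p = 0.028). That call was lost without any 1 of the colitic Tmem173fl/fl libraries or Tmem173iΔmye replicate 2, with limma, and with the replicate block (-1.03, edgeR adjusted p = 0.069).

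Among carrier proteins and the cell surface receptor, the subunits of integrin αvβ3, a plasma membrane binding site of T4 besides its role in adhesion, rose with DSS in Tmem173fl/fl mice. Itgb3 went from 21.2 ± 3.0 to 133 ± 23.8 CPM (log2 fold change 2.72, SE 0.17, edgeR adjusted p = 3.6e-06) and Itgav, the most abundant of the list at 5.77 to 25.1 FPKM, from 74.4 ± 5.89 to 215 ± 52.7 CPM (1.59, SE 0.19, adjusted p = 1.5e-04). Itgb3 rose in Tmem173iΔmye mice as well, by 1.14 (SE 0.25, adjusted p = 0.042, lost without any untreated replicate or colitic replicate 1, with limma and in the male libraries), and in colitis it was lower with the deletion than in Tmem173fl/fl mice (log2 fold change -1.51, SE 0.25, adjusted p = 0.025), which was lost without any 1 of the colitic Tmem173fl/fl libraries, without Tmem173iΔmye replicate 2 and with limma. Ttr, a plasma carrier, fell in Tmem173fl/fl mice (-2.56, SE 0.40, adjusted p = 8.5e-04), and Alb fell in Tmem173iΔmye mice (-2.85, SE 0.59, adjusted p = 0.038), from 59, 92 and 27 to 6, 4 and 13 counts, a call lost with limma, with all libraries in one fit and without any library but colitic replicate 5. Both carriers are made mainly by the liver, and their counts here are low.

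Of 17 receptor partners and coregulators, 3 rose and 1 fell with DSS in Tmem173fl/fl mice, near the 14.9% and 7.61% over all genes. Among those that rose, besides Nr1d1, was the retinoid X receptor gene Rxrg, from 1, 2 and 2 to 24, 11 and 10 counts. The Rxrg call was lost without colitic Tmem173fl/fl replicate 1 (edgeR adjusted p = 0.057) and with limma on log2(FPKM + 1). The coactivator gene Ppargc1a (PGC-1α) fell from 60.7 ± 11.4 to 14.2 ± 3.95 CPM (log2 fold change -2.03, SE 0.22, edgeR adjusted p = 8.8e-05). The main partner Rxra and the corepressor Ncor1 were not called, with log2 fold changes of 0.41 and -0.23, nor was the list's most abundant gene Gps2 (0.35, adjusted p = 0.075). In Tmem173iΔmye mice 0 of 17 passed, near the 1.48% higher and 0.597% lower over all genes.

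Among genes for the making and turnover of the Dio2 protein, 0 of 9 for selenoprotein synthesis were called with DSS in Tmem173fl/fl mice. Over all genes 14.9% rose and 7.61% fell, and the median was -0.22 for the 9 against 0.03 over all genes. Their most abundant member Rpl30 gave -0.01. The selenophosphate synthetase gene Sephs2 (-0.86, edgeR adjusted p = 6.7e-04), Sepsecs (-0.73, 0.0032), Pstk (-0.77, 0.029) and Elavl1 (-0.50, 0.013) had an adjusted p under 0.05 but missed the fold threshold. Of 11 genes for turnover of the Dio2 protein (its ubiquitination, the removal of ubiquitin and its degradation), 0 were called (median -0.07). Wsb1, the adaptor that recognises the protein (-0.51, edgeR adjusted p = 0.042), and Ube2g2, a ubiquitin-conjugating enzyme (0.40, 0.028), had an adjusted p under 0.05 but missed the fold. Marchf6 (-0.14) and the abundant Elob (-0.07) met neither. At an adjusted p under 0.05 with no fold threshold, 46 of all 88 genes passed in this comparison in place of 27, as did 35.4% of all genes tested.

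Regulators known to induce Dio2 were tested in 11 of 12 cases, and 2 rose in Tmem173fl/fl mice, near the 14.9% over all genes. Gpbar1, the bile acid receptor TGR5 that signals through cAMP, went from 3, 5 and 6 to 55, 46 and 22 counts (log2 fold change 2.85, SE 0.46, edgeR adjusted p = 9.7e-04). Gli2, a transcription factor of hedgehog signalling, went from 3.56, 3.86 and 3.76 to 23.5, 19.0 and 9.87 CPM (2.30, SE 0.31, adjusted p = 3.2e-04). Creb1, the factor named for the cAMP response element, and Rela, a subunit of NF-kB, gave -0.46 (adjusted p = 0.013) and 0.86 (adjusted p = 8.7e-04), neither past the fold threshold, and the list's most abundant gene Hif1a gave 0.12. In Tmem173iΔmye mice 0 of 11 passed, near the 1.48% higher and 0.597% lower over all genes.

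Of 17 genes tested that are known to respond to T3, 2 rose and 3 fell with DSS in Tmem173fl/fl mice, where 14.9% of all genes rose and 7.61% fell. Klf9, a direct receptor target in many tissues, rose by 1.01 (SE 0.20, edgeR adjusted p = 0.0029) at the edge of the fold threshold and went under it in 10 of the alternatives. Alpi, an intestinal phosphatase, rose from 28.9 ± 21.2 to 100.1 ± 27.3 CPM (1.87, SE 0.42, adjusted p = 0.0064), a call lost with all 12 libraries in one fit (adjusted p = 0.14, edgeR). Hr, the corepressor hairless, fell by 1.47 on the log2 scale, and the lipogenic genes Fasn and Acaca fell by 1.36 and 1.14 on that scale. Fasn and Acaca also fell in Tmem173iΔmye mice, by 1.36 and 1.2 on that scale (adjusted p = 0.042 and 0.033, edgeR), together with Thrsp, from 5.28, 10.4 and 34.3 to 1.57, 3.17 and 2.25 CPM (-2.84, adjusted p = 0.047). Those 3 calls were lost without any library but colitic replicate 5, with limma (those of Thrsp and Fasn also with filterByExpr and with library totals), and in the male libraries (adjusted p = 0.062, 0.098 and 0.13). The most abundant gene of the list, Ctnnb1, gave -0.14 in Tmem173fl/fl mice (adjusted p = 0.56). The 12 other genes of the 17 tested in Tmem173fl/fl mice were not called.

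**Figure D4:**
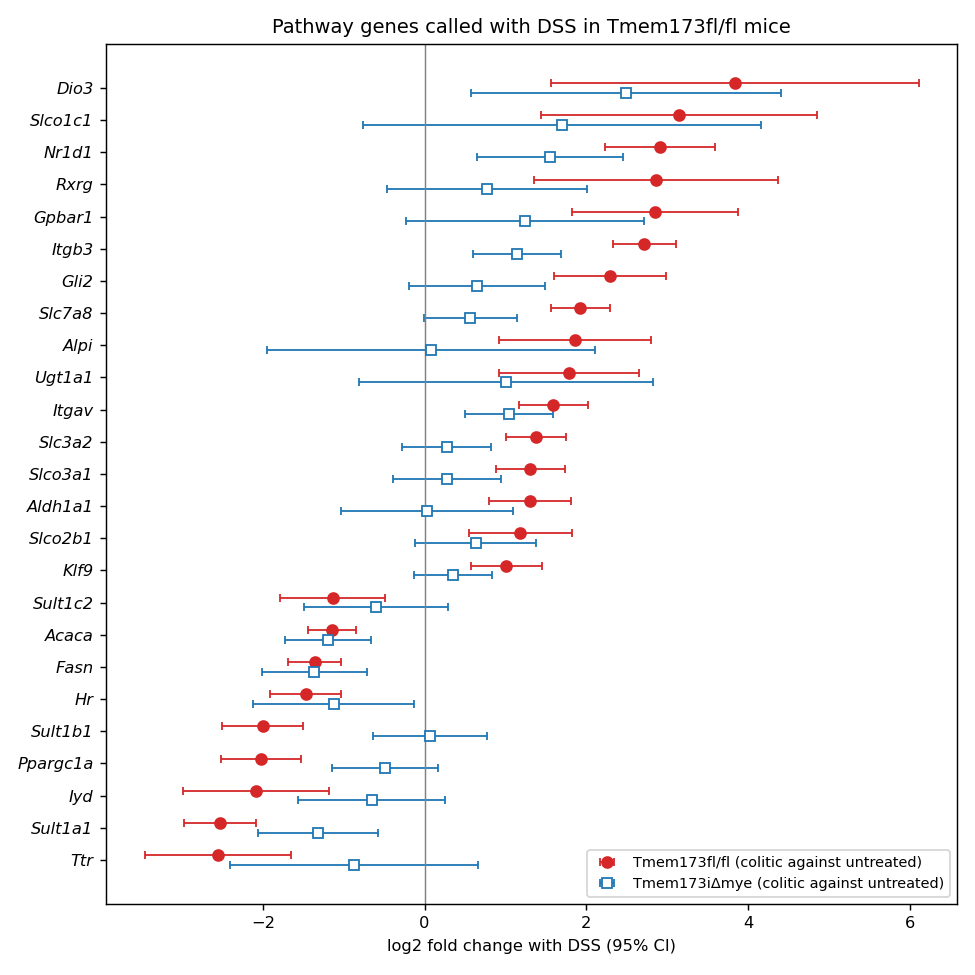
Log2 fold changes with DSS and 95% confidence intervals (edgeR) for 25 of the 27 pathway genes called in Tmem173fl/fl mice (filled circles), with the values of the same genes in Tmem173iΔmye mice (open squares). The genes were selected on the Tmem173fl/fl values, which partly fixes that most filled circles lie farther from 0.

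The genes whose pattern was most like that of Dio2 over the 12 libraries, by Pearson r of log2(CPM + 0.5), were Adamts9 (r = 0.992), Crispld2 (0.991), Hgf (0.989), Sphk1 (0.989) and 6030408B16Rik (0.987). These are correlations over libraries that share groups, given as a description. Hgf encodes hepatocyte growth factor, Sphk1 a kinase that makes sphingosine 1-phosphate, and Adamts9 a secreted metalloproteinase. Hgf went from 3.05 to 5.20 CPM in untreated to 75.2 to 113 CPM in colitic Tmem173fl/fl mice and was at 10.1 to 25.9 CPM in colitic Tmem173iΔmye mice. The ranking among such close values is loose, as Spearman's rho shares 0 of these 5 names in its own top 5, and leaving out 1 library shares 2 to 4. Most like Dio1 were Fam83c (0.984), Id1 (0.977) and the mitochondrial creatine kinase gene Ckmt1 (0.974), most like Thra were Ager (0.944), Gm33869 (0.941) and Tead3 (0.940), and most like Thrb were Pla2g16 (0.964), Zbtb6 (0.962) and the mitochondrial fusion gene Opa1 (0.953). With Dio2 itself, Thra had an r of 0.830, Dio1 of -0.878 and Thrb of -0.855.

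**Figure D5:**
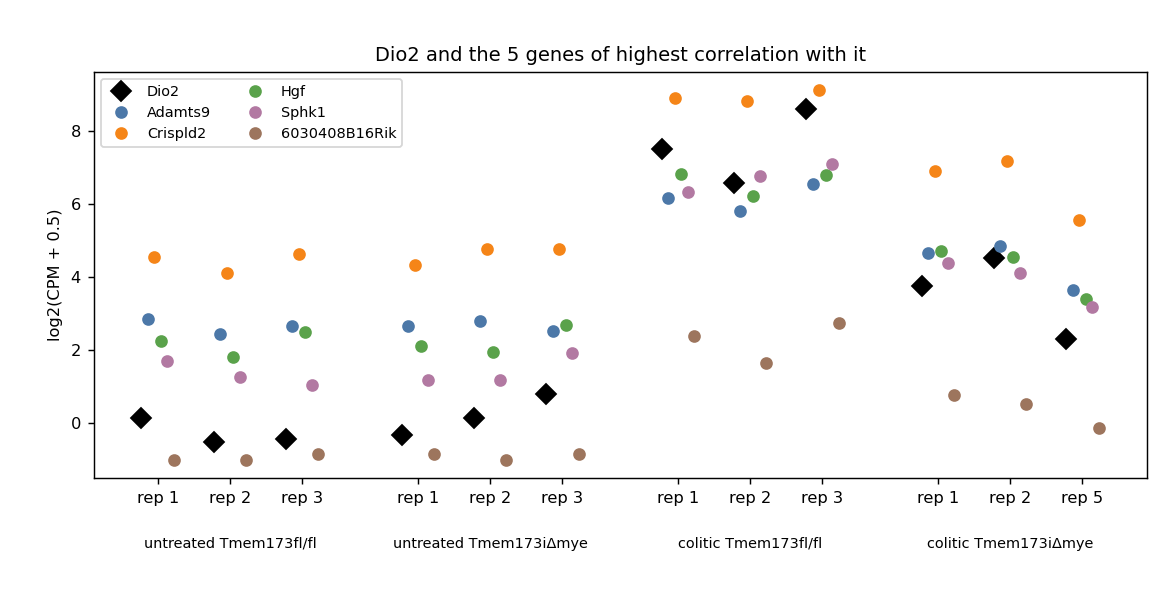
Log2(CPM + 0.5) of Dio2 (diamonds) and of the 5 genes of highest Pearson r with it (circles) in each of the 12 libraries. All 6 are highest in the colitic Tmem173fl/fl libraries and intermediate in the colitic Tmem173iΔmye libraries, where Dio2 ranges from 4.43 to 22.8 CPM.

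Other genes lie over the members and could share reads with them. Gm26512, a noncoding RNA that starts opposite Dio2 (chr12:90724552-90738438, minus strand) and shares 238 bases with it, had at most 3 counts in a library against up to 5798 for Dio2. Within Thrb (chr14:17660261-18038090, plus strand), Gm48321, Gm48320 and Gm24140 had at most 4, 2 and 1 counts. No annotated gene overlaps Dio1 (chr4:107291465-107307169, minus strand).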

How the data were processed

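RNA of whole colon was sequenced in 12 libraries from 4 groups of 3. The authors deposited 1 table with whole-number counts per gene and FPKM per library, with columns of their own comparisons (fold changes, p-values) that were not used. Per the labels and the submitters' processing notes, reads passed through CASAVA 1.8 and fastp, were aligned to GRCm38 with HISAT2 2.0.5 and counted with featureCounts 1.5.0-p3, and DESeq2 1.20.0 was used. The strand setting of counting is not given in the sources used here. FPKM was computed by the authors and served the filter and comparisons between genes.

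Genes with 3 or more libraries at an FPKM of 0.1 or above were tested with edgeR 4.0.16 (R 4.3.3, quasi-likelihood test, TMM scaling, Benjamini-Hochberg adjustment over all genes tested), with only the groups compared in each fit and all 12 libraries for the interaction. A gene was called when its adjusted p was below 0.05 and its log2 fold change was 1 or more in size. CPM was computed from counts and TMM-scaled totals, which ran from 13823237 to 18718915 counts before scaling. Intervals on ratios of counts cover counting error only. DESeq2 1.42.0, limma 3.58.1 on log2(FPKM + 0.1) and log2(FPKM + 1), other filters and scalings, a replicate block, male libraries only and each library left out were alternatives. The fit was tested on simulated counts with the same dispersion for every gene and changes only in genes well above the floor. That test does not cover genes near the floor or with wider spread.

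The members and gene lists were chosen with earlier results of these data known. Named genes are the members, Dio3, genes that overlap a member, up to 3 called genes per list and direction, the most abundant gene of each list, and the genes most like a member. Sult1c2, Slco2b1, Slco3a1, Sephs2, Sepsecs, Pstk, Elavl1, Wsb1, Marchf6, Ube2g2, Creb1, Rela, Rxra and Ncor1 lie outside that rule and were named after their values were seen. Single markers of other tissues were named as well. Among the gene symbols, 27 were held as dates and were matched by gene identifier. Promoters came from RefSeq (GRCm38.p6) and coding sequence from GENCODE vM21. Some genes of the lists are counted but not reported here by name.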

Additional observations from a re-analysis of the deposited data

Results flagged for a closer look

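By the interaction test over all 12 libraries (edgeR, adjusted over all genes tested), the effect of DSS differed between Tmem173fl/fl and Tmem173iΔmye mice for 3 of the 88 genes tested from the thyroid hormone lists (1 higher and 2 lower, where 0.934% and 1.61% of all genes were called), which says nothing particular to the lists. For the sulfotransferase gene Sult1b1 the DSS effect was 2.14 higher on the log2 scale in Tmem173iΔmye mice (adjusted p = 0.021), called in 14 of 21 alternatives. For the transporter gene Slc7a8 the difference was -1.29 (adjusted p = 0.034), called in 11 of 21 alternatives and not with the replicate block (-1.09, adjusted p = 0.066). For the integrin gene Itgb3 it was -1.50 (adjusted p = 0.019), called in 17 of 21 alternatives. Without the 3 female libraries the adjusted p was 0.12, 0.13 and 0.12.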

How the results depend on the processing

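The fall of Dio1 with DSS in Tmem173fl/fl mice was called under all 16 alternatives. With limma on log2(FPKM + 0.1) and log2(FPKM + 1), the Dio2 values were 7.73 and 5.02 for DSS in Tmem173fl/fl mice, 3.23 and 1.43 for DSS in Tmem173iΔmye mice, 0.44 and 0.081 for genotype without DSS, and -3.59 for the interaction (second pseudocount), where pseudocounts shrink low values by construction; 0 and 0 pathway genes were called for DSS in Tmem173iΔmye mice and 0 and 0 for genotype with DSS, and Thra without DSS turned to -0.046 and -0.036. With an adjusted p alone, Thra (0.91), Thrb (-0.51) and 46 pathway genes passed with DSS in Tmem173fl/fl mice, and Thra passed at 1.05 with library totals. Dio1 for genotype with DSS was called at 1.65 with no filter, 1.67 with DESeq2 and 1.66 with all libraries in one fit, each with 8 pathway genes called, and for the interaction at 1.73 with no filter (9 pathway genes) and 1.74 with DESeq2 (8). Library totals gave 5 pathway genes for the interaction, and no filter gave 1 for genotype without DSS. In male libraries Dio2 was 5.31 for DSS in Tmem173iΔmye mice, 0.18 for genotype without DSS and -3.87 for the interaction, Thra without DSS was -0.34, and 2 (DSS in Tmem173iΔmye mice) and 0 (interaction) pathway genes were called. Spearman's rho shared 0 of the 5 genes most like Dio2. The edgeR function filterByExpr dropped Dio2 for genotype without DSS and gave no value there. The cause of these differences was not tested.

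Correlations of the deviations from the group means ran from -0.080 to 0.091 for same-numbered libraries and from -0.24 to 0.17 for differently numbered ones. With 3 libraries per group this cannot decide whether the numbers pair them. With the replicate block, Dio2 was 5.30 for DSS in Tmem173iΔmye mice, -2.94 for genotype with DSS and -4.02 for the interaction, Dio1 passed for the interaction at 1.59, Thra without DSS was -0.045, and 14 (DSS in Tmem173iΔmye mice) and 1 (genotype without DSS) pathway genes were called, Slc7a8 was not called for genotype with DSS or for the interaction, and Klf9 was at 0.99 with DSS in Tmem173fl/fl mice, under the fold threshold.

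Leaving out 1 library gave, for genotype without DSS, 0.38 to 1.64 for Dio2, -0.36 to 0.14 for Dio1, -0.33 to 0.20 for Thra and -0.024 to 0.068 for Thrb. Dio2 ranged from 8.68 to 9.96 for DSS in Tmem173fl/fl mice, 3.59 to 4.89 for DSS in Tmem173iΔmye mice, -4.67 to -3.38 for genotype with DSS and -5.74 to -4.45 for the interaction. Dio1 ranged from 1.18 to 1.87 for genotype with DSS and from 1.31 to 2.02 for the interaction. Pathway genes called ranged from 0 to 12 for DSS in Tmem173iΔmye mice, 0 to 10 for genotype with DSS, 1 to 11 for the interaction and 26 to 28 for DSS in Tmem173fl/fl mice, and 2 to 4 of the 5 genes most like Dio2 were shared. Depth limits Dio2 in untreated mice and Dio3 everywhere.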
